A study of Mus musculus with 4 samples.

Results

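Luminal progenitor cells are the milk-lineage cells of the inner, luminal layer of the mammary duct, and 4345 of the 17667 cells kept here (24.6%), or 64.6% of 6725 luminal cells, were assigned to them. Cells were kept with at least 1000 unique molecular identifiers (UMIs, each tagging 1 captured RNA molecule), at least 500 detected genes and at most 10% of UMIs from mitochondrial genes. A kept cell was luminal where the summed UMIs of the luminal keratins Krt8, Krt18 and Krt19 came to at least 5 and exceeded 3 times the sum of the basal genes Krt5, Krt14, Krt17 and Acta2. A luminal cell was called a luminal progenitor cell where the sum of Wfdc18, Csn3 and Ltf, named the progenitor sum below, came to at least 3 and exceeded the sum of Ly6d, Fxyd2 and Gpx3. The reverse order, with at least 3 UMIs of Ly6d, Fxyd2 and Gpx3, gave 1168 hormone-sensing luminal cells, and 1212 luminal cells fell in neither class. Levels of these 13 genes were therefore fixed by the choice of cells.

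The cells came from 4 single-cell 3′ RNA libraries of FVB mice, all Tfap2c fl/fl / Krt5-CreERT2, 9 weeks old at harvest of the fourth mammary glands. Each library is 1 mouse: 2 mice received corn oil, the vehicle, and 2 received 4OHT (4-hydroxytamoxifen, which activates CreERT2), injected daily from 4 weeks of age. The labels give the injections once as 5 days and once as 1 week. The series asks about mammary stem cells after Tfap2c is deleted in a conditional way, and all 4 mice carried the floxed allele and the Cre, so the vehicle is the control. Cre is driven by the promoter of Krt5, a gene of the basal layer. Basal cells were taken as kept cells whose basal gene sum came to at least 5 and exceeded 3 times the luminal keratin sum. Krt5 stood at 364 ± 12.6 CPM in basal cells and 8.04 ± 2.53 CPM in luminal progenitor cells (SD over 4 libraries). CPM are a gene's UMIs summed over the cells of a class in a library and scaled to a common total. Both cell rules used Krt5, so this contrast was fixed by the choice of cells. Values per library are given below in the order corn oil replicate 1, corn oil replicate 2, 4OHT replicate 1 and 4OHT replicate 2, and ± is the SD over libraries unless another error is named.

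The mammary epithelium has an outer basal layer that contracts and an inner luminal layer with a pair of lineages. Hormone-sensing cells carry the oestrogen and progesterone receptors and signal to their neighbours, whereas luminal progenitor cells largely lack those receptors and give rise to the alveolar cells that make milk. Their transcription factor Elf5 drives alveolar differentiation, and before pregnancy they are known for low-level milk protein genes, aldehyde dehydrogenase activity and genes of innate defence.

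The libraries gave 1039, 930, 1225 and 1151 luminal progenitor cells, with median depths of 5570, 4938, 4642 and 3632 UMIs. Summed over these cells, a library held 5165387 to 6260099 UMIs, of 17351950 to 22017878 in all. Their median mitochondrial share was 1.21% to 1.41%. Tfap2c, the floxed gene, stood at 389, 285, 285 and 326 CPM in basal cells and at 53.4, 38.3, 55.4 and 34.7 CPM in luminal progenitor cells, so the 4OHT and corn oil libraries overlapped in both classes. A 3′ count does not report a deletion elsewhere in the gene, and the labels do not say which part is floxed. Across libraries 155 cell barcodes occurred more than once, 15 to 22 of them in the luminal progenitor cells of a library. Several genes split by replicate number in luminal progenitor, hormone-sensing and basal cells alike: Ubb, a ubiquitin gene, stood at 1126, 61.2, 1239 and 70.3 CPM in luminal progenitor cells. Both replicates numbered 1 were high and both numbered 2 were low. What the numbers share is not given in the labels, so values within each number stand beside the pooled 4OHT comparisons below.

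The name was checked with Aldh1a3 and Elf5, which the choice of cells did not use. Aldh1a3, a retinaldehyde dehydrogenase (chr7:66390890-66427517, minus strand, GRCm38), reached 242, 209, 295 and 253 CPM in luminal progenitor cells and 17.7, 27.6, 9.66 and 8.27 CPM in hormone-sensing cells. Elf5 (chr2:103411688-103450989, plus strand) reached 206, 131, 149 and 173 CPM against 3.08, 1.76, 11.6 and 5.51 CPM. For both genes the lowest luminal progenitor library was above the highest hormone-sensing library, and basal cells were low as well, at 3.87 ± 1.33 CPM for Aldh1a3 and 1.59 ± 0.565 CPM for Elf5. With every cell thinned to 2000 UMIs, an Elf5 UMI was found in 19.6% to 26.0% of luminal progenitor cells, 0% to 0.424% of hormone-sensing cells and 0.172% to 0.389% of basal cells, and unthinned in 35.2% to 44.6% of luminal progenitor cells. The corresponding thinned shares for Aldh1a3 were 20.4% to 23.6%, 0.459% to 2.76% and 0.305% to 0.889%, with 31.5% to 38.4% of luminal progenitor cells unthinned, so the label held on both genes. Kit, a receptor often used to sort progenitors, was sparse, with a UMI in 1.77% to 3.18% of luminal progenitor cells (4.34% to 7.59% unthinned) and 0% to 0.229% of hormone-sensing cells.

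The genes that chose the cells are given as a description only. Wfdc18, a whey acidic protein family member (chr11:83709015-83711348), averaged 4066 ± 1644 CPM in luminal progenitor cells, Csn3, kappa-casein (chr5:87925579-87932665), 3982 ± 1206 CPM, and Ltf, lactoferrin (chr9:111019271-111042767), 2435 ± 934 CPM. In hormone-sensing cells they stood at 42.5 ± 24.3, 47.2 ± 14.3 and 27.0 ± 10.6 CPM. The median progenitor sum per luminal progenitor cell was 30, 33.5, 20 and 32 UMIs. At the threshold, 61, 41, 89 and 56 cells had exactly 3 UMIs and were in, while 66, 49, 119 and 61 had 2 UMIs and were out. Between 3.59% and 5.87% of luminal progenitor cells also held 3 or more UMIs of Ly6d, Fxyd2 and Gpx3. Within the luminal keratins the classes differed: Krt8 stood at 4839, 3067, 6348 and 4549 CPM in luminal progenitor cells against 1851, 1293, 2037 and 1814 CPM in hormone-sensing cells, while Krt19 stood at 543 ± 59.2 against 1648 ± 441 CPM.

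**Figure D1:**
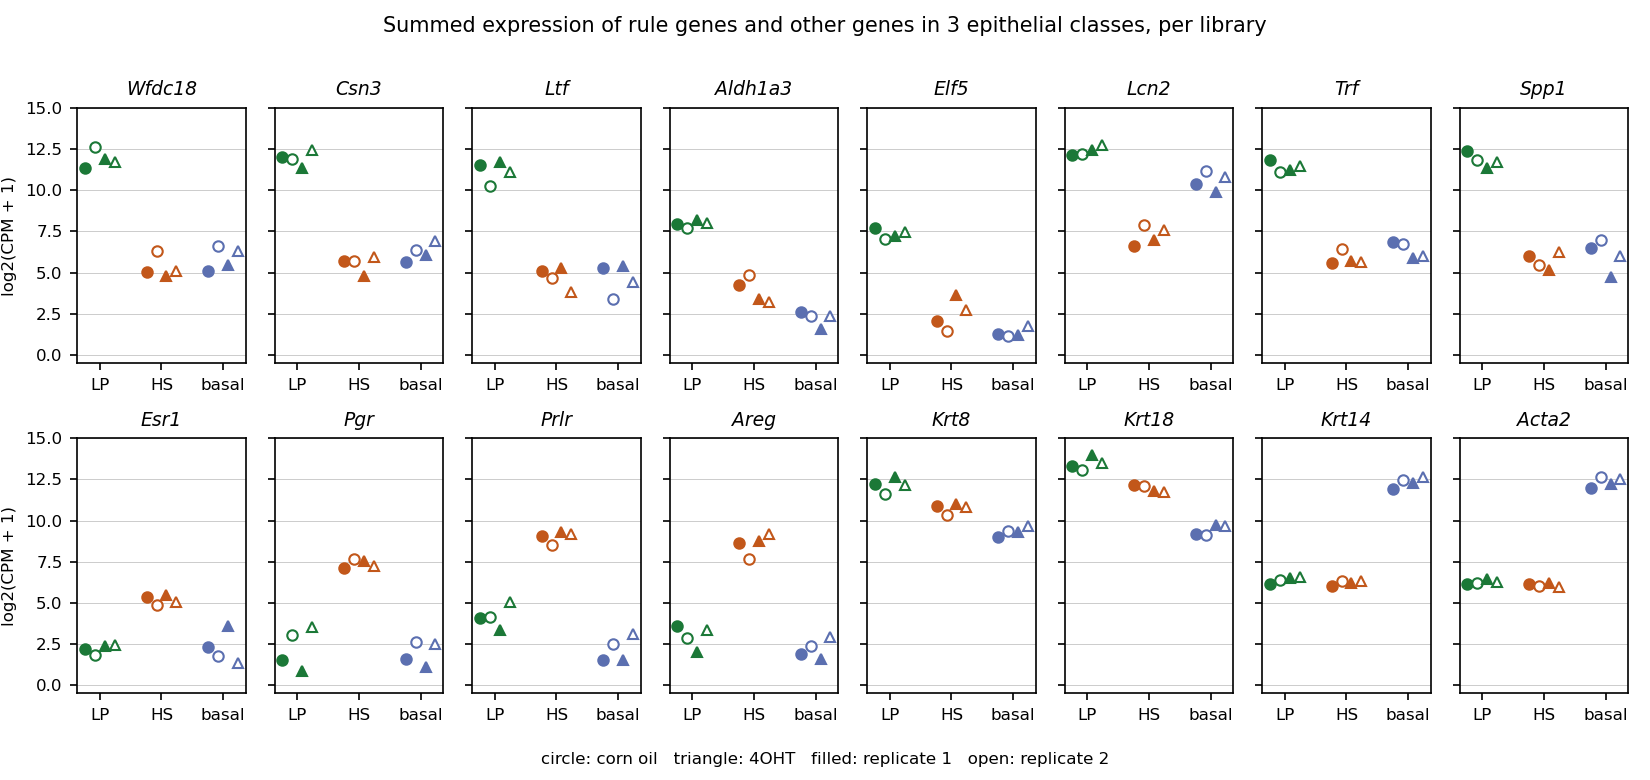
Level of 16 genes in luminal progenitor, hormone-sensing luminal and basal cells, as log2(CPM + 1) of the summed UMIs of a library; circles are corn oil, triangles 4OHT, filled symbols replicate 1 and open symbols replicate 2. Aldh1a3 and Elf5 are high in luminal progenitor cells of all 4 libraries and low in both other classes.

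Luminal progenitor cells were set against hormone-sensing cells within each library on the log2(CPM + 1) scale, over 4515 genes with at least 20 CPM in the class where the gene was higher. A gene was called where the difference was at least 1 in the same direction in all 4 libraries. By that rule 339 genes (7.51%) were higher and 355 (7.86%) were lower in luminal progenitor cells. Both classes were defined from the same counts, so these values describe the classes and no test was made. Without the genes that chose the cells, 335 (7.44%) were higher and 351 (7.79%) lower. The split depended on scaling: with TMM factors, which move the median of these genes from -0.17 to 0.16, 472 genes were higher and 252 lower, so the higher share of called genes went from 48.85% to 65.19%. All 339 higher genes and 252 of the lower genes kept their call.

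**Figure D2:**
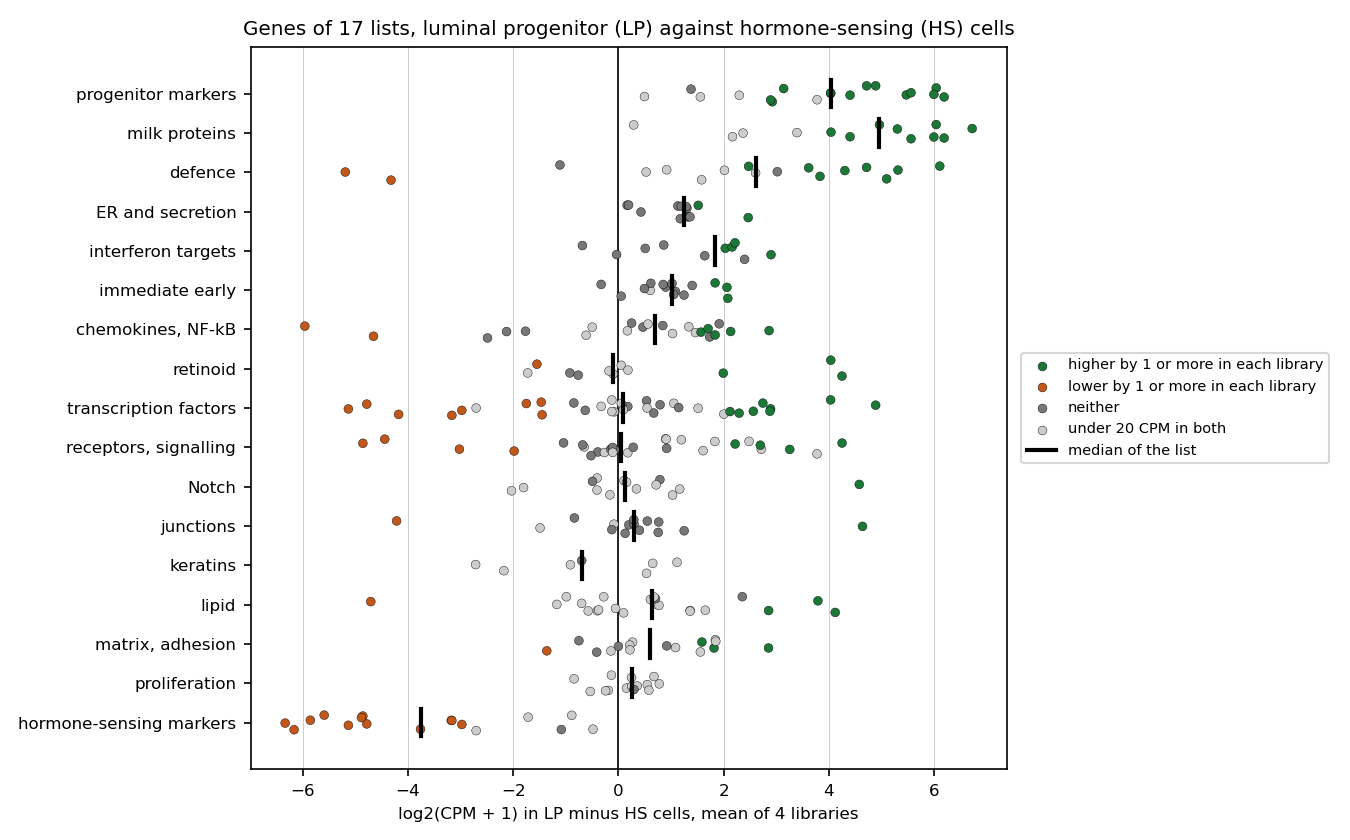
Log2 difference of luminal progenitor minus hormone-sensing cells for each gene of 17 gene lists, mean of 4 libraries; each point is a gene and the black bar is the list's median. Milk genes and progenitor markers lie above 0 and hormone-sensing markers below it.

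Milk protein genes were far higher in luminal progenitor than in hormone-sensing cells. Of 14 genes on the milk list, 9 had at least 20 CPM, and all 9 were called higher and 0 lower (7.51% of all genes were called higher). The list's median difference over members with UMIs was 4.96, against -0.09 for all genes with UMIs. These milk genes overlap the markers by which luminal progenitor cells are known, and the cells were picked with the casein gene Csn3, so the direction is no independent evidence. Csn1s1, alpha-S1-casein, reached 743, 1616, 145 and 311 CPM in luminal progenitor cells and 9.25, 24.1, 0.644 and 3.54 CPM in hormone-sensing cells, a log2 difference of 6.19 ± 0.20 (n = 4 libraries). Csn2, beta-casein, reached 454, 639, 34.7 and 153 CPM, a difference of 6.0 ± 1.06. Csn1s2a, another casein, reached 799, 269, 35.1 and 234 CPM, a difference of 6.72 ± 1.05. Hormone-sensing cells held 12, 41, 1 and 9 UMIs of Csn1s1, 4, 12, 1 and 2 of Csn2, and 5, 2, 0 and 1 of Csn1s2a. At such counts the CPM of 1 added before the log makes these differences smaller, and their SDs depend on it. The lowest luminal progenitor library of each of these caseins was 4OHT replicate 1, and it was still above every hormone-sensing library. Lalba, alpha-lactalbumin, the milk-sugar synthase subunit, reached 111, 96.2, 88.0 and 233 CPM against a hormone-sensing mean of 0.975 ± 0.672 CPM. Trf, transferrin, the iron carrier, reached 3706, 2195, 2357 and 2792 CPM against 58.2 ± 19.0, and Mfge8, a milk fat globule protein, 1018 ± 208 against 46.7 ± 5.56 CPM. Lpo had 0 UMIs in both classes.

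Upstream sequences are shown for Csn1s1 and Csn2, which were among the 10 genes with the widest range over libraries, because the response element of Stat5, the prolactin-driven factor of milk genes, is the palindrome TTCNNNGAA. The sequences are RefSeq promoter windows on build GRCm38.p6, written 5′ to 3′ on the strand of the gene, with a match to TTCNNNGAA in capitals; the motif reads the same on both strands. Csn1s1 is shown for the 250 bases before its start (chr5:87665958-87666207, plus strand), and its match begins 100 bases before the gene. Csn2 is shown for 29 bases around its match (chr5:87699500-87699528, minus strand), which begins 93 bases before its RefSeq start.
Csn1s1: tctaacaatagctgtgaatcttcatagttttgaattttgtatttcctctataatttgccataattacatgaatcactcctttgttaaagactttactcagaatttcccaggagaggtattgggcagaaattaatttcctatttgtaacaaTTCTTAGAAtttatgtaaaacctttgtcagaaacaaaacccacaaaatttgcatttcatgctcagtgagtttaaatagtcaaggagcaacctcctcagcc
Csn2: tcacgtagacTTCTTGGAAttgaagggac
A match stood in 7.02% of all 32851 windows of 250 upstream bases, in 8.13% of the 27025 genes with a window, and in 6.66% of the 3559 of these genes with at least 20 CPM. It stood in 6.72% of the 253 windowed genes called higher and in 7.43% of the 269 called lower, close to the share at 20 CPM or more. Of the milk list 3 of 9 windowed genes held a match, and of the 15 genes named as highest above hormone-sensing cells 2 of 11. The match is a description of letters and says nothing of binding.

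Defence genes formed the next group. Of 20 defence genes 12 had at least 20 CPM, and 8 were called higher and 2 lower in luminal progenitor cells. Over all genes of at least 20 CPM, 7.51% were called higher and 7.86% lower. The list median was 2.61 over members with UMIs. Lcn2, an iron-chelating antibacterial protein, reached 4528, 4745, 5482 and 6926 CPM against 98.7, 239, 127 and 193 CPM in hormone-sensing cells. Spp1, osteopontin, reached 5231, 3689, 2568 and 3368 CPM against 63.2, 42.9, 34.1 and 73.6 CPM. Cd14, the lipopolysaccharide co-receptor, reached 571, 679, 1053 and 275 CPM against a hormone-sensing mean of 21.6 ± 6.19 CPM. For all 3 genes the lowest luminal progenitor library was above the highest hormone-sensing library. Lbp, Chil1, C3, Cp and S100a8 were also called higher. Wfdc2, at 75.5 ± 21.6 against 1512 ± 308 CPM, and Reg3g were called lower. Lcn2 was also present in basal cells at 1590.2 ± 583 CPM and a UMI was found there in 58.5% to 76.9% of cells after thinning and 72.7% to 83.0% unthinned.

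Chemokine and NF-κB genes split. Of 22 genes 15 had at least 20 CPM, and the list median was 0.70. Called higher were 5 (Nfkbia, Cxcl16, Tnfaip2, Birc3 and Icam1) and called lower 2 (Cxcl15 and Il33). The shares over all genes were 7.51% and 7.86%. Nfkbia, the inhibitor of NF-κB, reached 3746, 2529, 3006 and 4237 CPM against 631, 1192, 644 and 671 CPM, and the libraries of the classes did not overlap. The neutrophil chemokine Cxcl1 stood at 196 ± 87.1 against 60.9 ± 32.9 CPM and was called in neither direction.

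Transcription factors showed as many genes lower as higher. Of 35 factors 24 had at least 20 CPM, 8 were called higher and 8 lower (7.51% and 7.86% over all genes), with a median of 0.09. Higher in luminal progenitor cells were Elf5 and the related Ets factor Ehf (93.8 ± 10.8 against 11.8 ± 1.68 CPM), Cebpb and Cebpd of the C/EBP family, Sox10, Creb5, Klf5 and Tfap2c. Cebpb reached 2378, 529, 804 and 624 CPM against 227, 95.3, 105 and 92.1 CPM. Its library of corn oil replicate 1 stood highest, and the other 3 libraries were also above every hormone-sensing library. Sox10, a factor best known from the neural crest, stood at 57.1 ± 13.3 against 2.90 ± 2.02 CPM and at 68.7 ± 6.68 CPM in basal cells. Tfap2c, which encodes AP-2γ and is the gene floxed in these mice, reached 45.5 ± 10.5 CPM in luminal progenitor cells, 8.99 ± 4.41 CPM in hormone-sensing cells and 321 ± 48.8 CPM in basal cells.

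The 8 factors called lower were Gata3, Foxa1, Esr1, Pgr, Tfap2b, Stat5a, Tbx3 and Id3. Esr1 and Pgr, the oestrogen and progesterone receptors, stood at 3.66 ± 0.832 and 5.14 ± 4.61 CPM against 35.8 ± 7.46 and 167 ± 30.2 CPM. Foxa1, which opens chromatin for the oestrogen receptor, stood at 2.33 ± 2.23 against 79.5 ± 24.4 CPM. Gata3, a luminal differentiation factor, stood at 111 ± 16.3 CPM against 309.9 ± 47.6. Stat5a, the prolactin-activated factor, stood at 11.9 ± 2.77 against 42.1 ± 7.41 CPM, and Id3 at 8.27 ± 2.64 against 171 ± 65.4.

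Receptors likewise went both ways, at a median of 0.06. Of 30 genes 17 had at least 20 CPM, and 4 were called higher and 4 lower (7.51% and 7.86% over all genes). Met, the receptor of hepatocyte growth factor, stood at 45.1 ± 19.5 against 5.67 ± 1.00 CPM, and the hyaluronan receptor Cd44 at 129 ± 49.99 against 12.9 ± 5.79 CPM. Igf1r and the mucin Muc1 (44.8 ± 4.10 against 2.52 ± 3.84 CPM) were the other genes called higher. Prlr, the prolactin receptor, stood at 18.5 ± 9.66 CPM against 527 ± 119 CPM, and Fgfr2 at 7.62 ± 3.59 against 182 ± 53.2. Cd24a and Lifr were also called lower. Of 14 Notch pathway genes 3 had at least 20 CPM and 1 was called higher: Hey1, a Notch target, at 101, 36.2, 40.4 and 89.9 CPM against a hormone-sensing mean of 1.91 ± 1.83 CPM. Notch1 (38.88 ± 8.60 against 21.8 ± 3.28 CPM) and Hes1 (143 ± 43.1 against 202 ± 60.6) were called in neither direction. Among retinoid genes, Aldh1a3 and the retinoic acid carrier Crabp2 (91.8 ± 9.97 against 3.98 ± 1.34 CPM) were called higher, and Dhrs3 was called lower.

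Of 15 tight junction genes 13 had at least 20 CPM, 1 was called higher and 1 lower, near the shares over all genes (7.51% and 7.86%). The higher gene was Cldn1, at 135, 101, 198 and 170.1 CPM against 4.97 ± 0.875 CPM, and the lower was Cldn10, at 11.2 ± 7.12 against 209 ± 60.4 CPM. Cldn4 stood at 1999 ± 453 against 829.6 ± 116 CPM and was called in neither direction. Among lipid genes, 6 of 23 had at least 20 CPM, with Scd1, Plin2 and Fabp5 called higher and Dgat2 lower. Plin2, which coats lipid droplets, stood at 541 ± 86.0 against 41.6 ± 19.3 CPM, and Dgat2, a triglyceride synthase, at 3.97 ± 1.45 against 139 ± 71.2. Agpat6 was not among the gene names. All 12 endoplasmic reticulum and secretory genes had at least 20 CPM, and 3 were called higher (Hspa5, Pdia6 and Dnajb9) at a list median of 1.24. Hspa5, the chaperone BiP, stood at 1921 ± 487 against 346 ± 92.2 CPM and at 3217 ± 769 CPM in basal cells. Of 17 matrix, adhesion and protease genes 8 had at least 20 CPM, and 3 were called higher (Plaur, Timp3 and Serpinb5) and 1 lower. Of 9 further keratins only Krt7 reached 20 CPM and it was not called (389 ± 156 against 606 ± 105 CPM).

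Interferon-response genes had a median of 1.83, and all 10 had at least 20 CPM. Of these 4 were called higher (7.51% over all genes): Ifit1, Isg15, Irf7 and Rsad2. The 10 genes summed to 794, 1311, 979 and 333 CPM in luminal progenitor cells, lowest in 4OHT replicate 2. In hormone-sensing cells the sum was 245 to 476 CPM. Of 15 immediate-early and heat-shock genes 14 had at least 20 CPM, and 3 were called higher (Egr1, Ier3 and Zfp36). Such genes respond to tissue dissociation, and their sum was 6106 to 11099.5 CPM in luminal progenitor cells and 3346 to 5346 CPM in hormone-sensing cells; the part of dissociation in this difference was not tested. Of 14 proliferation genes 13 were under 20 CPM and could not be called, and the other, Tubb5, a tubulin gene not limited to dividing cells, was called in neither direction (469 ± 35.8 against 385 ± 55.8 CPM). The list's sum, mostly Tubb5, was 495 to 551 CPM in luminal progenitor cells and 376 to 517 CPM in hormone-sensing cells, and these ranges overlapped. After thinning, 21.5% to 27.8% of luminal progenitor cells and 16.5% to 20.3% of hormone-sensing cells held 2 or more UMIs of the list, without overlap. Unthinned, the shares were 43.4% to 56.8% and 44.3% to 60.9% and overlapped.

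Markers of other cells were checked beside these groups. The 7 endothelial markers summed to 10.5 to 57.1 CPM in luminal progenitor cells and 15.5 to 88.6 CPM in hormone-sensing cells, the 8 leukocyte markers to 0.974 to 10.1 and 2.31 to 124 CPM, and neither list had a called gene. The 6 fibroblast markers summed to 3.62 to 9.90 CPM in luminal progenitor cells and to 243, 53.5, 1346 and 238 CPM in hormone-sensing cells. Dcn made up most of the hormone-sensing sum in each library, with 315, 86, 2058 and 601 UMIs. These lay in 45 of 151, 41 of 330, 106 of 240 and 75 of 447 cells. Of the 6 fibroblast markers 1 had at least 20 CPM, and it was called lower in luminal progenitor cells (7.86% over all genes). The part of Dcn in the differences between the classes was not tested. Of 15 basal markers 5 had at least 20 CPM, and 2 were called higher and 0 lower in luminal progenitor cells (7.51% and 7.86% over all genes). Those called were Tagln (116 ± 58.5 against 27.1 ± 14.1 CPM) and Apoe (249 ± 55.4 against 41.6 ± 10.4). Both were well under their basal levels of 2802 ± 422 and 1176 ± 338 CPM. The basal sum was 451 to 533 CPM in luminal progenitor and 174 to 214 CPM in hormone-sensing cells.

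Of the 15 higher genes with the largest difference in the lowest library, those not yet described span secretion, ion transport and matrix. Tspan8, a tetraspanin, reached 198, 109, 107 and 129.5 CPM against 1.99 ± 0.230 CPM, and Car2, carbonic anhydrase, 49.8, 45.5, 30.2 and 60.6 CPM against 0.537 ± 0.369. Atp6v1b1, a proton pump subunit, reached 58.1, 38.5, 34.3 and 58.7 CPM against 0.442 ± 0.565, and Fcgbp, an IgG Fc binding protein, 513, 488, 328 and 228 CPM against 8.75 ± 5.47. Igfbp5 reached 882, 437, 747 and 393 CPM against 12.8 ± 1.76, with 232 ± 88.1 CPM in basal cells, while Apod, Wfdc3, Clic6 and C530043A13Rik completed the 15. Against the higher of hormone-sensing and basal cells, the 10 genes with the largest lowest-library excess were Lalba, Spp1, Fcgbp, Clic6, Csn2, Car2, Trf, Muc15, Atp6v1b1 and Csn1s1. Of these, Muc15 stood at 129 ± 43.6 CPM.

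Genes lower in luminal progenitor cells included markers by which the hormone-sensing lineage is known, at a list median of -3.76. Of 18 such markers 13 had at least 20 CPM, and 12 were called lower and 0 higher. Over all genes 7.86% were called lower and 7.51% higher. Tph1, a serotonin synthesis enzyme, stood at 2.92 ± 1.11 CPM against 533, 243, 191 and 347 CPM. Ptn, pleiotrophin, stood at 96.1, 93.5, 24.4 and 167 CPM against 5250.1, 2926, 5150.1 and 5571 CPM. Both genes were below every hormone-sensing library in every luminal progenitor library. Areg, the epidermal growth factor receptor ligand amphiregulin, stood at 7.49 ± 3.57 against 405 ± 161 CPM. The other genes of the 15 with the largest deficit were Cited1, Tspan1, Gipc2, Cxcl15, Cdo1, Crym, Fgb, R3hdml, Upk3a, Enho, Msx2 and Arg1. Of the 18 progenitor markers, 14 had at least 20 CPM, and 13 were called higher and 0 lower, at a median of 4.03. Rhov was called in neither direction, and Kit, Itga2, Slc34a2 and Gabrp were under 20 CPM.

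Luminal progenitor cells were not uniform along the progenitor sum that chose them. Cells were binned by that sum in each library: 0, 1 to 2, 3 to 5, 6 to 29, and 30 or more UMIs, with hormone-sensing cells beside them. The bins below 3 lie outside the luminal progenitor cells: the bin of 0 holds luminal cells with fewer than 3 UMIs of Ly6d, Fxyd2 and Gpx3, and the bin of 1 to 2 those whose progenitor sum exceeded that of Ly6d, Fxyd2 and Gpx3. The bin of 0 also held transcripts of the hormone-sensing class, with medians of 927 CPM for Ptn and 113 CPM for Prlr, against 25.9 and 4.13 CPM at 3 to 5 UMIs. Medians over the 4 libraries for Elf5 were 19.3, 24.7, 42.9, 119.9 and 219 CPM from the lowest bin to the highest. Trf went from 396 through 857 to 3729 CPM, and Spp1 from 134 to 4942 CPM. The milk and defence genes Mfge8, Lalba, Lcn2 and Cd14 were higher in each successive bin from 3 to 5 UMIs upward, on the medians.

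Other genes differed less between the bins or were ordered otherwise. Aldh1a3 medians ran 138, 195, 209.6, 223 and 261 CPM, against 13.7 CPM in hormone-sensing cells. Cldn4 was highest from 1 to 29 UMIs (2861, 2906 and 2604 CPM) and lower at 30 or more (1437 CPM, over 1042 to 1856 in the libraries). Cldn1, Krt7 and Anxa3 were likewise lower in the top bin than at 3 to 5 UMIs: Krt7 stood at 489.7 and 273 CPM, and Anxa3 at 171 and 93.7 CPM. Tfap2c stood at 32.6, 43.1 and 52.5 CPM in the luminal progenitor bins. The median depth per bin was 3189 to 4053 UMIs in the bin of 0 and 3767 to 5984 in the top bin, and the bins share the counts that chose them, so no test was made.

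**Figure D3:**
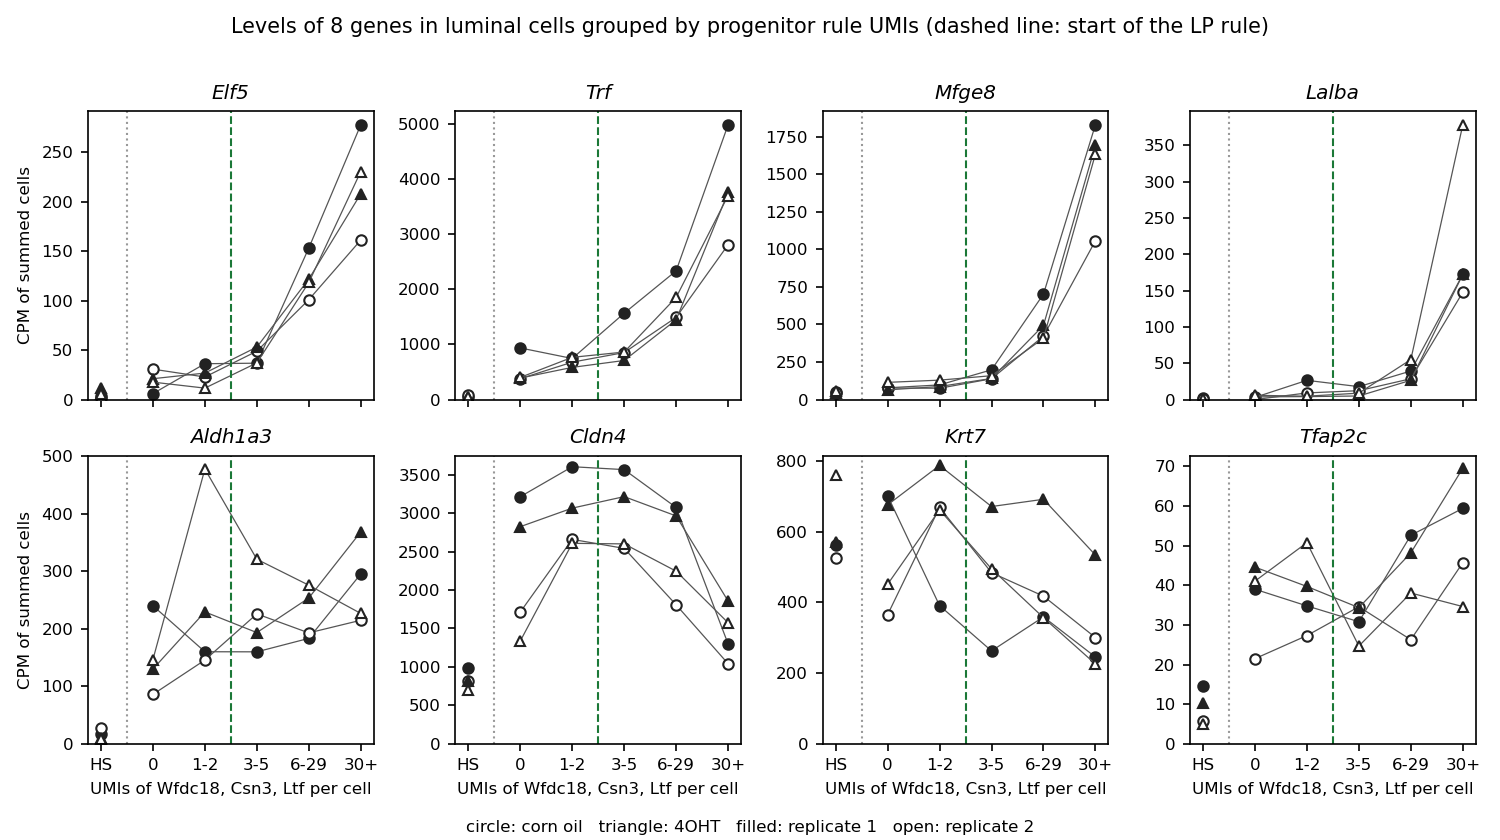
Level of 8 genes, CPM of the summed UMIs, by bin of the progenitor sum (Wfdc18, Csn3 and Ltf) with hormone-sensing cells at the left; each point is a library. Elf5, Trf, Mfge8 and Lalba are higher with each successive luminal progenitor bin, while Cldn4 and Krt7 are lower in the top bin.

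Variation among luminal progenitor cells was measured with the Fano factor, the variance over the mean of UMIs per cell, after thinning to 2000 UMIs. Pure counting noise gives about 1, and cells under 2000 UMIs (20, 23, 61 and 80) were left out. Of 1444 genes with a mean of at least 0.1 UMI, 146 (10.1%) had a Fano factor of at least 2 in all 4 libraries. Hspb1, a small heat-shock protein gene, had values of 62.3, 53.4, 70.1 and 57.8, and Spp1 75.6, 55.8, 69.9 and 46.7. Hspa1a, an inducible Hsp70 gene, had 41.5, 29.2, 35.8 and 35.1. These 3 genes were far above 2 in every library. Others among the 15 with the largest lowest value were Fth1 (ferritin), Hmox1 (haem oxygenase), Mt1 (metallothionein), Actg1, Tmsb4x, Malat1, Slpi and Ccl5, with Krt8, Krt18, Wfdc18 and Csn3 from the genes that chose the cells. Ccl5 had 30.7, 66.1, 12.7 and 30.8 while its UMIs were found in 1.87% to 3.09% of thinned luminal progenitor cells.

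Some pairs of these genes varied together between cells of a library, and others went opposite ways. Spearman's rho over the thinned cells of each library is given with no test. Hspb1 and Hspa1a had rho of 0.415 to 0.554 in the 4 libraries, Krt18 and Krt8 0.751 to 0.802, and Actg1 and Tmsb4x 0.475 to 0.575. Spp1 and Csn3 had 0.271 to 0.391. Among pairs of negative rho, Fth1 and Krt18 had -0.42 to -0.34, and Krt18 and Csn3 -0.41 to -0.21. Krt8 and Krt18 were summed to call a cell luminal and Csn3 to call it a progenitor, so the choice of cells used the values of those pairs. The cells of a library share 1 preparation, and heat-shock genes respond to dissociation, whose part in this spread was not tested.

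**Figure D4:**
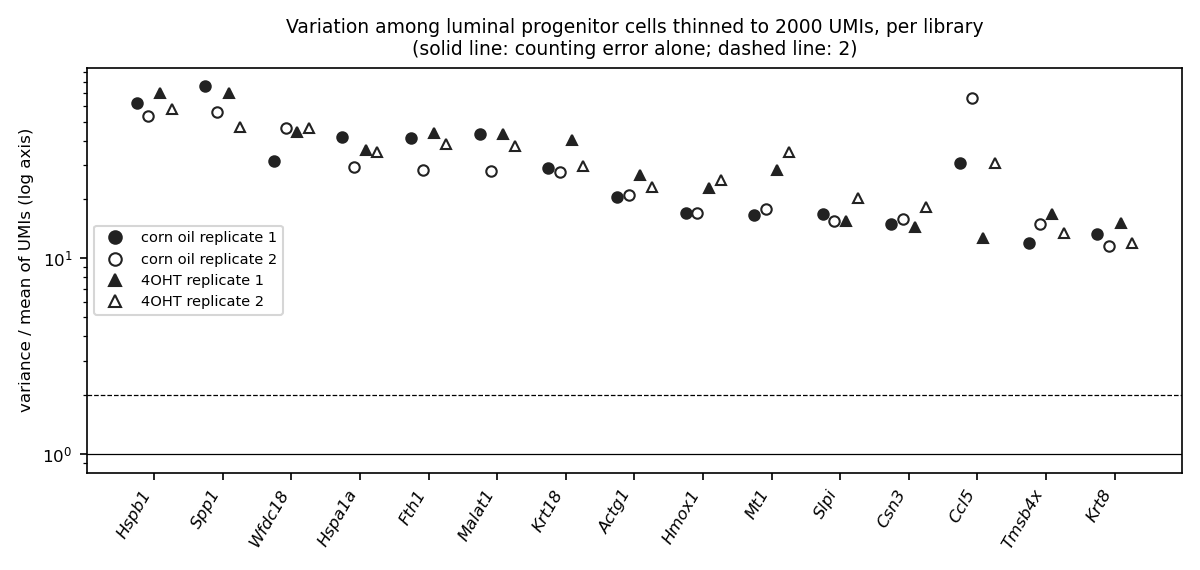
Fano factor of 15 genes across luminal progenitor cells thinned to 2000 UMIs, on a log axis, 1 point per library, with lines at 1 and 2. Hspb1 and Spp1 have values from 46.7 to 75.6.

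The share of luminal progenitor cells differed between treatments by less than the spread between libraries. They made up 29.8% (95% exact Clopper-Pearson interval 28.3% to 31.3%), 22.1% (20.9% to 23.4%), 26.5% (25.2% to 27.8%) and 21.5% (20.4% to 22.7%) of kept cells; the intervals cover counting error only. The corn oil mean was 25.9% ± 5.42 and the 4OHT mean 24.0% ± 3.51, a difference of -1.93 points. The exact two-sided permutation test gave p = 0.667, and the smallest p that 2 against 2 allows is 0.333. Within replicate number 1 the difference was -3.28 points and within number 2 -0.585 points. It turned to 1.90 points without corn oil replicate 1, to 0.551 without 4OHT replicate 2 and to 1.06 with cells thinned to 2000 UMIs.

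Among luminal cells, luminal progenitor cells made up 72.7% (70.3% to 74.95%), 63.8% (61.3% to 66.3%), 61.7% (59.6% to 63.9%) and 62.1% (59.9% to 64.3%), and both 4OHT libraries were below both corn oil libraries. The means were 68.2% ± 6.27 and 61.9% ± 0.263, a difference of -6.29 points with an exact two-sided permutation p of 0.333, the smallest this design allows. Within numbers it was -10.9 and -1.67 points. It was -1.86 points without corn oil replicate 1 and -10.7 without corn oil replicate 2, and with cells thinned to 2000 UMIs -2.29. Median UMIs per luminal progenitor cell were lowest in 4OHT replicate 2, and its part in the shares was not tested.

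Gene levels in luminal progenitor cells with 4OHT were tested on the summed counts of the 4 libraries with the quasi-likelihood test of edgeR. None of 9869 genes passed a Benjamini-Hochberg adjusted p of 0.05 (0%), with a smallest adjusted p of 1.00, while 169 genes (1.71%) had an unadjusted p under 0.05, 78 higher (0.79%) and 91 lower. DESeq2's Wald test passed 1 gene, Csn1s1, at an adjusted p of 0.00738. With 2 mice a group, p-values measure the spread between these 4 mice. The count was 25 without corn oil replicate 1, 12 without corn oil replicate 2, 44 without 4OHT replicate 1 and 40 without 4OHT replicate 2, in fits where the lone library of a group is assumed to vary like the other group.

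Casein genes were among those that differed most between the libraries. Csn1s1 levels (743, 1616, 145 and 311 CPM) gave a log2 fold change of -2.22 ± 0.49 (SE), with an unadjusted edgeR p of 0.00145 that did not pass after adjustment. Both 4OHT libraries were below both corn oil libraries, and the differences within replicate numbers were -2.35 and -2.37. The UMIs came from 277 of 1039, 526 of 930, 115 of 1225 and 169 of 1151 cells. Csn2 gave -2.38 ± 0.62 (SE), with -3.67 and -2.05 within numbers, but 63.2% of its UMIs in 4OHT replicate 2 were in 1 cell. Csn1s2a gave -1.82 ± 0.80 (SE) and within numbers -4.47 and -0.20, with 40.7% of its UMIs in 4OHT replicate 2 in 1 cell. Lalba gave 0.78 ± 0.45 (SE) and opposite signs within numbers (-0.33 and 1.27), and Csn3 gave 0.18 ± 0.41. Over the milk list, 0 of 12 tested genes passed, 3 had an unadjusted p under 0.05, all lower with 4OHT, and the median log2 fold change was -0.71. Both 4OHT libraries were below both corn oil libraries in 4 of those genes and above in 0; over all genes that happened in 17.8% and 6.63%.

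The 3 genes of smallest p were Cdo1, Wdcp and Cxcl1, none passing adjustment. Cdo1, cysteine dioxygenase (chr18:46713193-46728395), stood at 3.41, 3.68, 11.7 and 21.5 CPM, a log2 fold change of 2.35 ± 0.44 (SE; 1.52 and 2.27 within numbers), while hormone-sensing cells held 279.8, 180.0, 317 and 589 CPM. In corn oil replicate 1 76.2% and in 4OHT replicate 1 72.6% of its luminal progenitor UMIs were in 1 cell. Wdcp (chr12:4843303-4860043) stood at 41.9, 20.3, 7.19 and 6.67 CPM, a log2 fold change of -2.07 ± 0.41 (SE; -2.39 and -1.48 within numbers), with 72.9% of its UMIs in corn oil replicate 1 in 1 cell. Cxcl1 (chr5:90891241-90893115) stood at 129, 116, 290.1 and 251 CPM, a log2 fold change of 1.25 ± 0.26 (SE), and its UMIs came from 291, 173, 401 and 330 cells. The within-number differences of Cxcl1 were 1.16 and 1.11.

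Interferon-response genes were lower in 4OHT replicate 2 than in corn oil replicate 2. Of 10 tested, 0 passed, 2 had an unadjusted p under 0.05 (1.71% of all genes), and 0 had a fold change above 0, at a median of -0.77. Within replicate number 1 the genes went both ways, and within number 2 all were lower: the log2 difference within numbers 1 and 2 was 0.47 and -1.87 for Isg15 and 1.76 and -3.41 for Rsad2. Of 15 immediate-early and heat-shock genes 12 had a fold change above 0, at a median of 0.33, 2 had an unadjusted p under 0.05 and 0 passed. Over all 9869 genes 47.5% had a fold change above 0 and the median was -0.02.

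**Figure D5:**
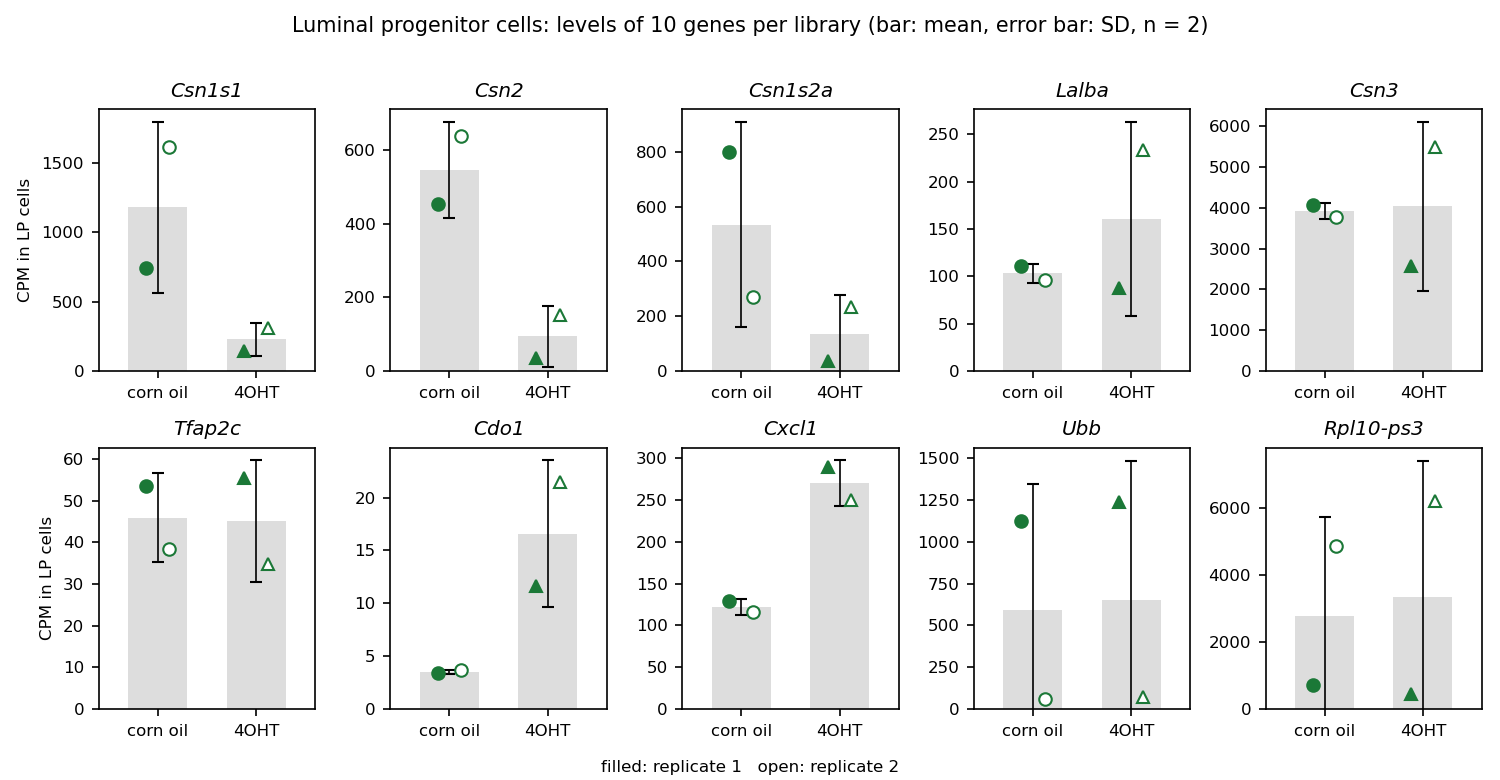
Level of 10 genes in luminal progenitor cells by library, in CPM, with bars as the mean ± SD of 2 libraries a group. Filled symbols are replicate 1 and open symbols replicate 2. Csn1s1 is lower in both 4OHT libraries, whereas Ubb and Rpl10-ps3 split by replicate number.

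The 10 genes with the widest range over the 4 libraries in luminal progenitor cells included caseins and genes that split by replicate number. Among them were Csn1s2a, Csn2 and Csn1s1, while Ubb, Gm7334, Gm9774, Adrm1 and Rpl10-ps3 split by replicate number. Rpl10-ps3 stood at 702, 4859, 461 and 6208 CPM and its near-identical copy Rpl10 at 6956, 2373, 6547 and 2090 CPM, the opposite order, so reads may have been divided between them and both levels are uncertain. Iigp1, an interferon-inducible GTPase gene, stood at 57.6, 79.4, 46.6 and 4.76 CPM, and Ptx3 at 94.3, 6.78, 32.6 and 19.0 CPM. Iigp1 was lowest in 4OHT replicate 2, as the interferon sum was, and Ptx3 was highest in corn oil replicate 1.

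Whether the 4OHT effect differed between luminal progenitor and hormone-sensing cells was tested with an edgeR interaction term with the library as a block. Of 10249 genes 3 passed (0.0293%): Ctsr, Rarres2 and Wdcp. Ctsr, a cathepsin gene (chr13:61159204-61164256), stood at 0, 13.2, 0.319 and 0 CPM in luminal progenitor cells and 1.54, 3.53, 58.6 and 51.2 CPM in hormone-sensing cells. The highest levels rested on single cells: 98.5% of the Ctsr UMIs in luminal progenitor cells of corn oil replicate 2, and 71.4% and 82.3% of those in hormone-sensing cells of 4OHT replicates 1 and 2, were in 1 cell. The same held for Rarres2 in hormone-sensing cells of 4OHT replicate 1 (99.1%) and for Wdcp there (79.8%). DESeq2's Wald test passed 0 genes, with 98 at an unadjusted p under 0.05. By edgeR the count was 17 without corn oil replicate 1, 31 without corn oil replicate 2, 36 without 4OHT replicate 1 and 42 without 4OHT replicate 2. Aldh1a3 gave an interaction of 1.81 ± 0.39 (SE) with an edgeR adjusted p of 0.223. Its UMIs in hormone-sensing cells numbered 23, 47, 15 and 21, with 34.8%, 29.8%, 53.3% and 19.0% of them in 1 cell.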

How the data were processed

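Single-cell 3′ libraries (10x Genomics) of 4 mice were analysed from the count matrices that the authors deposited, which hold whole-number UMI counts per gene and cell. Reads were processed with Cell Ranger 3.0.1 and bcl2fastq against mm10, per the submitters' processing notes; what else shaped the counts is not given in the sources used here. Of 31053 genes, 30934 were matched to GENCODE M21 positions on GRCm38. Cells were filtered and classed as stated, and 556 of 18223 deposited cells were left out. Scrublet's automatic call marked 2 to 9 cells a library and so did not work; doublets were kept, and leaving out high scores was an alternative.

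UMIs were summed per library and class and expressed as CPM (log2 with a pseudocount of 1). Treatment and interaction tests used edgeR 4.0.16 (quasi-likelihood, TMM, filterByExpr, Benjamini-Hochberg) in R 4.3.3, with DESeq2 1.42.0 as an alternative. Shares used exact two-sided permutation tests over the libraries, computed in Python 3.11.15. Their Clopper-Pearson intervals came from scipy 1.17.1. Scanpy 1.11.5 ran Scrublet for the doublet scores. Tested on simulated data, the treatment fit recovered 84.5% of 200 genes changed by a log2 of 2 among 9640 genes, with 11 false calls. The interaction fit recovered 67.5% among 9700, with 3 false calls. The simulated counts gave all genes the same spread between libraries, a common dispersion estimated from these libraries. The share of such changes that the fits would find at each gene's own spread between these 4 mice was not tested. Genes were named by rank: the 15 with the largest lowest-library difference in each direction, the 10 above both other classes, the 15 with the largest Fano factor, the 10 with the widest range over libraries, the 3 of smallest p or those passing, and list members. Promoter windows came from RefSeq tables.

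The cell rule, gene lists and tests were chosen with earlier results of these data known. Leaving out barcodes found in another library was added after seeing the data. Some list members are not reported here.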

Additional observations from a re-analysis of the deposited data

Results flagged for a closer look

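The 4OHT effect in luminal progenitor cells differed from that in hormone-sensing cells for 3 genes by edgeR's interaction test. The signs below are the effect in luminal progenitor cells minus the effect in hormone-sensing cells, on the log2 scale. Ctsr gave -9.17 ± 0.95 (SE) at an edgeR adjusted p of 0.000338, and levels of 0, 13.2, 0.319 and 0 CPM in luminal progenitor cells against 1.54, 3.53, 58.6 and 51.2 CPM in hormone-sensing cells. Of its UMIs, 67 of 68 in luminal progenitor cells of corn oil replicate 2 and 107 of 130 in hormone-sensing cells of 4OHT replicate 2 were in 1 cell.

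Rarres2, which encodes chemerin (chr6:48569696-48572789), gave -6.37 ± 0.73 (SE) at an edgeR adjusted p of 0.00175, with 0, 5.42, 2.72 and 0 CPM in luminal progenitor cells and 0, 2.94, 149 and 0 CPM in hormone-sensing cells. Of 232 UMIs in hormone-sensing cells of 4OHT replicate 1, 230 were in 1 cell. Wdcp gave -3.54 ± 0.58 (SE) at an edgeR adjusted p of 0.0473, with 10.0, 8.82, 54.1 and 10.6 CPM in hormone-sensing cells. In 4OHT replicate 1, 67 of its 84 hormone-sensing UMIs were in 1 cell. None of the 3 genes passed where mixed cells were left out or where luminal progenitor cells needed a progenitor sum of at least 10. Ctsr and Rarres2 had an adjusted p of 1 by edgeR without corn oil replicate 2, and Wdcp 0.119 without corn oil replicate 1.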

How the results depend on the processing

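The direction of every named or listed gene that was called between luminal progenitor and hormone-sensing cells held under the alternatives run. The number of genes changed by 4OHT was 34 with no filter on low counts, 1 with DESeq2's Wald test, and 12 to 44 when single replicates were left out, and 0 in the other settings without a block. With the replicate number as a block (a pairing that the labels do not state; same-numbered deviations correlated at 0.380 over 3659 genes) it was 1, Csn1s1, at a log2 fold change of -2.26. The shares were set side by side within replicate numbers, without a test, and the classes were compared within each library. The number of genes whose 4OHT effect differed was 0 with a progenitor sum of at least 10, with cells thinned to 2000 UMIs, over genes of 20 CPM or more and with DESeq2's Wald test, 2 with mixed cells (3 or more UMIs of Ly6d, Fxyd2 and Gpx3) left out, with at most 5% mitochondrial UMIs and with DESeq2's size factors, 48 with no filter, and 17 to 42 when single replicates were left out. Genes lower in luminal progenitor cells numbered 210 with log2(CPM + 10) and 624 at 5 CPM or more, and those higher 243 and 527. Genes with a Fano factor of at least 2 numbered 76 of 773 tested (9.83%) with cells thinned to 1000 UMIs, against 146 of 1444 (10.1%). The difference in share of kept cells was 1.06 points with thinned cells and -5.76 to 1.90 when single replicates were left out; in share of luminal cells it was -2.29 with thinned cells and -10.7 to -1.86. Depth limits genes under 20 CPM in the class comparison, hormone-sensing cells numbered 151 in corn oil replicate 1, and 2 mice a group limit every 4OHT comparison.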
